A study of Mus musculus with 8 samples.

Results

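Amino acid transporters carry amino acids across the cell membrane and across the membranes of lysosomes, and the kidney uses them to win back the amino acids that the glomerulus filters. In the proximal tubule, apical transporters take amino acids up from the urine with sodium or proton gradients or by exchange, and basolateral exchangers and facilitators release them to the blood. Several work as pairs of a heavy chain, which brings the pair to the membrane, and a light chain, which transports. Their messenger RNAs were followed here in whole mouse kidney after cinacalcet hydrochloride, a calcimimetic that activates the calcium-sensing receptor.

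The genes were chosen by symbol as the families Slc1a, Slc3a, Slc6a, Slc7a, Slc36a, Slc38a (without Slc38a3) and Slc43a, together with Cltrn (also called Tmem27 or collectrin), an accessory protein of apical transporters. The rule found 67 symbols in the RefSeq gene table, of which 62 had a probe on the array, 80 probes in all. One of the 62, Slc7a6os, is named after a neighbouring gene and is not known as a transporter, which leaves 61 transport genes. Of these 61, 45 had a probe well above background on at least 4 of the 8 arrays and were tested within the 14209 genes of the whole array. The other 16 were not tested, and 12 of them were above background on no array, among them the cystine-glutamate exchanger gene Slc7a11. Counts below are of these 45 measured genes and not of all members. Slc36a1os, Slc36a3os, Slc6a16, Slc6a19os and Slc6a5 matched no probe.

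The study set 4 kidney samples of mice given cinacalcet, worded as 1 mg per g body weight for 5 days, against 4 of mice on standard chow. All mice are labelled male and 12 weeks of age, and the labels used here name no strain and no genetic change. Each Cy3-labelled RNA went on an array of its own in 1 colour, and all arrays lay on 1 slide. The labels do not say that samples are separate mice, and p-values therefore describe the variation among these samples, possibly technical. Levels are given as log2 intensity minus the 75th percentile of the same array, as mean ± SD (n = 4 per group), and a log2 fold change is cinacalcet minus control with its standard error from limma. In whole tissue, fewer cells of a type and less RNA per cell cannot be told apart.

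The 75th percentile of intensity lay between 202.9 and 257.1, and each array had 51.8% to 58.0% of its spots well above background. All 12 listed proximal tubule markers were measured, with a summed level of 10.29 to 10.75 on control arrays and 10.26 to 10.59 on cinacalcet arrays. Against the labels, 3 arrays (control 4, cinacalcet 2 and cinacalcet 3) had none of 4 Y-linked genes above background, where the other 5 had 3 or 4 of them. Xist, the RNA of X inactivation, was at 0.46 to 0.95 on these 3 arrays and at -6.99 to -4.22 on the other 5. The 3 arrays split 1 to 2 between control and cinacalcet. The summed level of the proximal tubule markers was also lowest on control 4 (10.29), cinacalcet 2 (10.26) and cinacalcet 3 (10.35). On the other 5 it was 10.50 to 10.75. Each gene named below that passed on 8 arrays is therefore also given from a fit with Y-linked signal as a block, called Y-adjusted. It is also given from the 5 Y-positive arrays alone, which drops the other 3. Both Y-positive cinacalcet arrays lay in slide column 1, and the Y-positive controls 1 to 3 in columns 3, 4 and 2. Treatment and slide column therefore cannot be told apart on the Y-positive arrays.

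Most amino acid transporter genes did not pass the test between cinacalcet and control. Of 45 measured genes 1 rose and 2 fell at a limma adjusted p under 0.05, and 42 did not pass. That is 6.67% of them, beside 8.02% of all genes tested, of which 3.37% were higher and 4.64% lower. The gene that rose was Slc43a1, a facilitator of large neutral amino acids, and those that fell were Slc6a15, a sodium-coupled transporter of branched-chain amino acids and proline, and Cltrn. In the Y-adjusted fit 6 of the 45 passed, 2 higher and 4 lower, or 13.3%, beside 17.0% of all genes (6.64% higher and 10.4% lower). On the Y-positive arrays 7 passed, 4 higher and 3 lower, or 15.6%, beside 7.85% of all genes (2.40% higher and 5.45% lower). The groups did not overlap for 6 of the 45 genes, 13.3%, where 17.8% of all genes tested did not overlap. The median log2 fold change was 0.08 over the 45 genes and -0.03 over all genes, and 16 of the 45 estimates were below 0, or 35.6%, beside 54.6% of all genes. The median size of the change was 0.21 over the 45 genes and 0.17 over all genes.

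**Figure D1:**
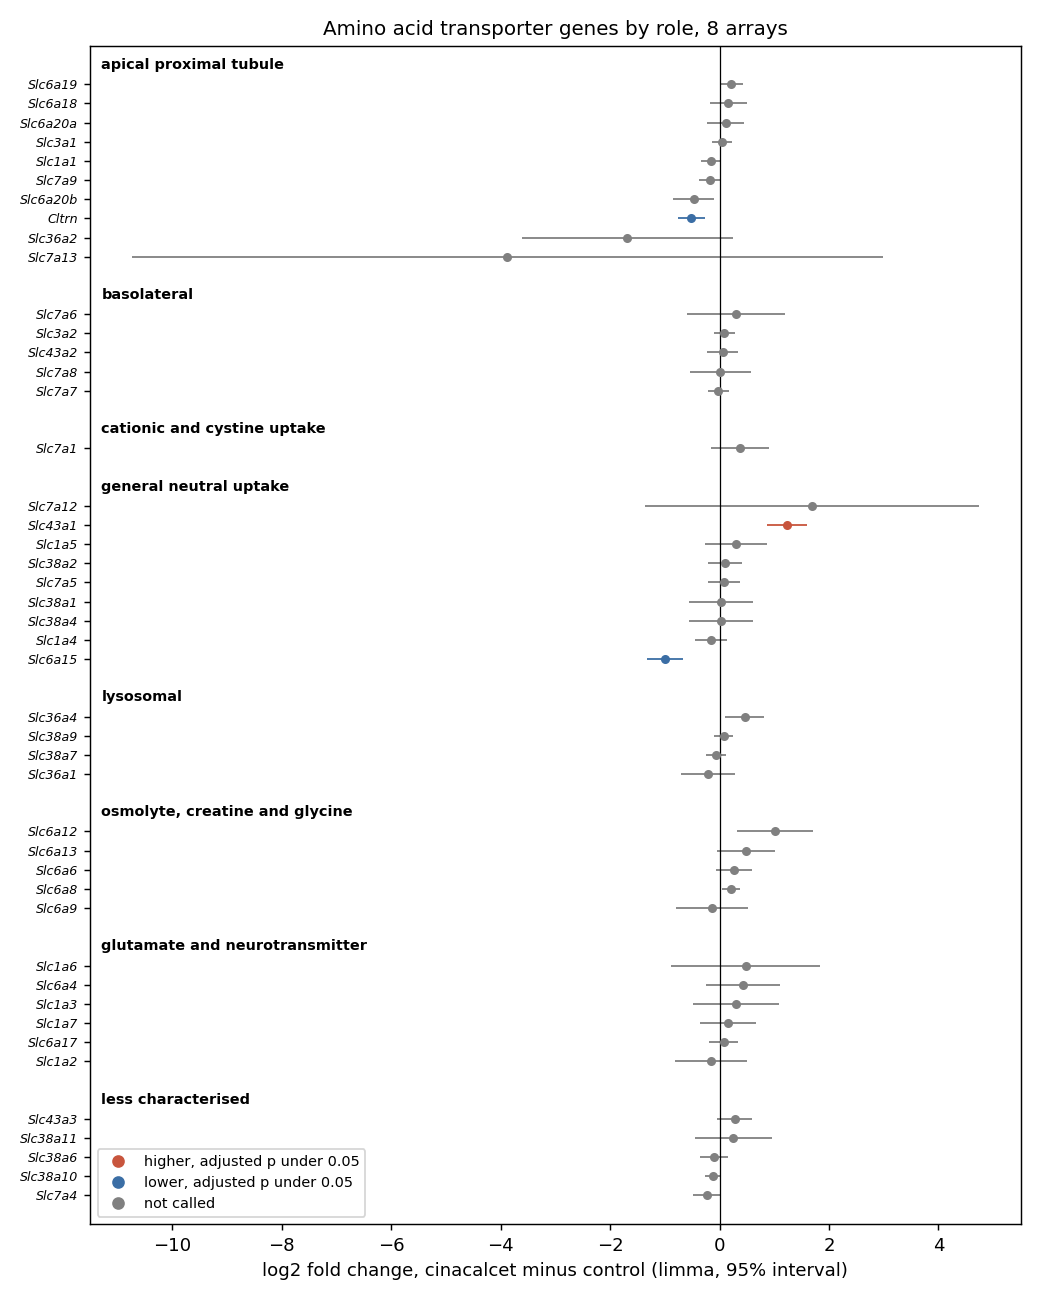
Log2 fold change of the 45 measured amino acid transporter genes, cinacalcet minus control on 8 arrays, with the 95% interval from limma (x axis) and genes grouped by role (y axis). Slc43a1 at 1.23 lies to the right, Slc6a15 at -1.001 and Cltrn at -0.52 to the left, and Slc7a13 and Slc7a12 have the widest intervals.

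Slc43a1 (LAT3) was higher on every cinacalcet array than on every control array. It is known in podocytes and liver, and in human prostate cancer, as a sodium-independent carrier of leucine, isoleucine, valine, phenylalanine and methionine. Control arrays 1 to 4 read -2.39, -2.71, -2.54 and -2.27. Cinacalcet arrays 1 to 4 read -1.58, -0.97, -1.41 and -1.04. The groups were thus apart by more than the range within either, on arrays with and without Y-linked signal alike. The mean rose from -2.48 ± 0.19 to -1.25 ± 0.29, a log2 fold change of 1.23 (SE 0.16, limma adjusted p = 0.00930), or 2.35-fold. It was 1.18 in the Y-adjusted fit (adjusted p = 0.00568) and 1.24 on the Y-positive arrays (adjusted p = 0.0335). The call held without each array in turn (adjusted p of 0.00468 to 0.0357). The processed intensity was 33.7 to 48.9 on control arrays and 83.5 to 121.5 on cinacalcet arrays, and with normexp background correction the log2 fold change was 0.59 (adjusted p = 0.00701).

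Slc6a15 (B0AT2, also SBAT1) is best known as a neuronal transporter of branched-chain amino acids and proline. Its levels on control arrays 1 to 4 were -1.30, -1.15, -1.36 and -0.94. On cinacalcet arrays 1 to 4 they were -2.33, -2.15, -2.41 and -1.86. The highest cinacalcet array lay below the lowest control array. The mean fell from -1.19 ± 0.19 to -2.19 ± 0.25, a log2 fold change of -1.001 (SE 0.14, limma adjusted p = 0.0114), or 2.00-fold. The call held in the Y-adjusted fit (-1.01, adjusted p = 0.00799), on the Y-positive arrays (-0.82, adjusted p = 0.0478) and without each array in turn (adjusted p of 0.0104 to 0.0445). With normexp background correction the log2 fold change was -0.57 (adjusted p = 0.00643). Glia and neuron markers, 4 of 7 of them measured, had a summed level of 4.87 to 5.41 on control and 4.88 to 5.52 on cinacalcet arrays, and none of the 4 passed the test.

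Cltrn encodes collectrin, which the proximal tubule needs to bring B0AT1 and related transporters to the brush border. It read 8.38, 8.56, 8.52 and 8.28 on control arrays 1 to 4. It read 8.18, 7.84, 7.82 and 7.82 on cinacalcet arrays 1 to 4. Cinacalcet 1 came close to control 4, and the other cinacalcet arrays lay well below. The mean fell from 8.44 ± 0.13 to 7.92 ± 0.18, a log2 fold change of -0.52 (SE 0.11, limma adjusted p = 0.0308), or 1.43-fold. A second probe of Cltrn gave -0.56. In the Y-adjusted fit the log2 fold change was -0.47 (adjusted p = 0.0162), while on the Y-positive arrays it was -0.48 and did not pass (adjusted p = 0.0818). The call held only without control 4 or cinacalcet 1, and leaving out any other array gave an adjusted p of up to 0.0960.

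**Figure D2:**
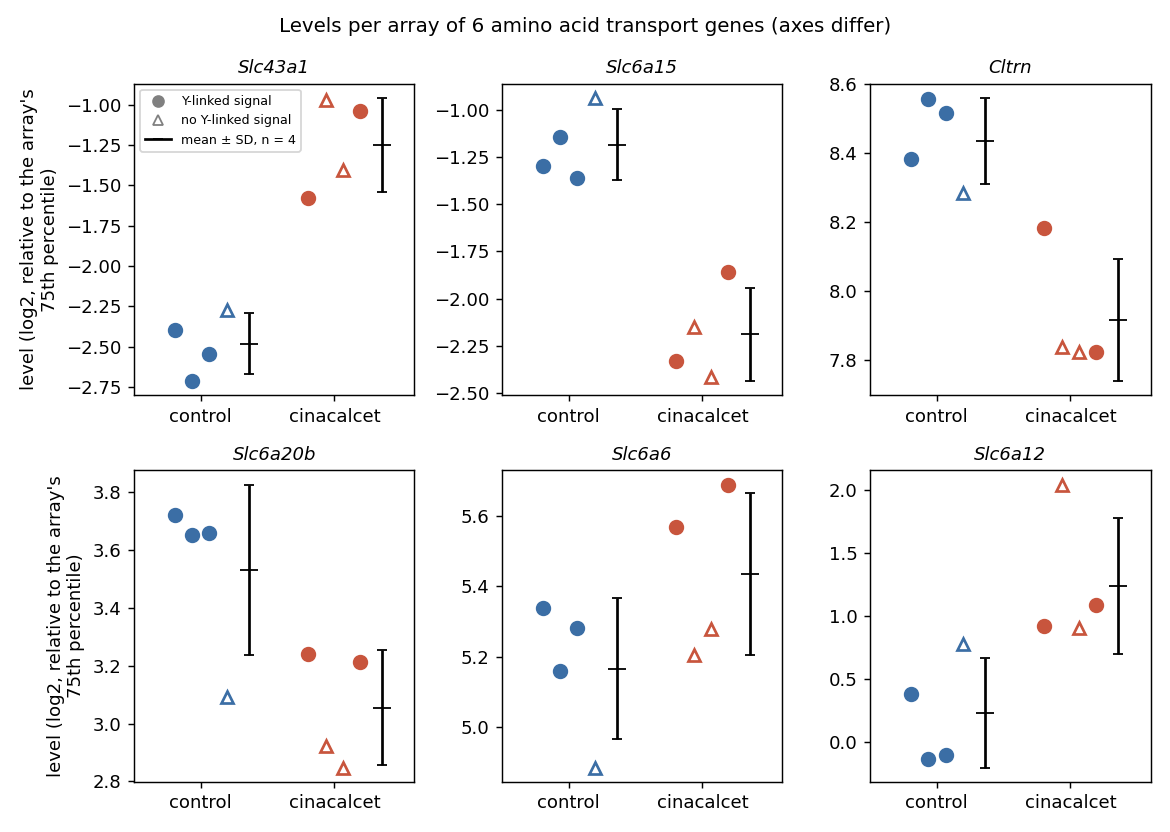
Levels of 6 genes on each array (y axis, log2 relative to the array's 75th percentile), control and cinacalcet, with circles for arrays with Y-linked signal, open triangles for arrays without and bars for the mean ± SD of 4 arrays. Slc43a1 and Slc6a15 separate the groups fully, and Cltrn and Slc6a12 do so by a narrow gap. In Slc6a20b and Slc6a6 the groups overlap, and the open triangle of control 4 lies below the other control arrays.

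Promoters of the genes that passed on 8 arrays are shown because these genes moved with the treatment, and 2 of the 3, Slc43a1 and Cltrn, had an entry in the RefSeq promoter table (GRCm38.p6). Each sequence is the 250 bases before the annotated start, 5′ to 3′ on the plus strand. Capitals mark matches on either strand to 4 searched motifs: AGAACA (a half-site of the glucocorticoid and androgen receptors), GTTAAT (a half-site of HNF1, a factor of proximal tubule genes), TATAAA (the TATA box) and TGATGNAAT (the ATF4 composite element of the amino acid response).
Slc43a1, chr2:84840073-84840322: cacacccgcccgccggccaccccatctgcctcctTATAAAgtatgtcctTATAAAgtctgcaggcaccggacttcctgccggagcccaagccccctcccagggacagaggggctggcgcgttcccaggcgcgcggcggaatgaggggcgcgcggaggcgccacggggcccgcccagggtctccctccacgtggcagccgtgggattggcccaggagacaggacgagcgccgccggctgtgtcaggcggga
Cltrn, chrX:164089937-164090186: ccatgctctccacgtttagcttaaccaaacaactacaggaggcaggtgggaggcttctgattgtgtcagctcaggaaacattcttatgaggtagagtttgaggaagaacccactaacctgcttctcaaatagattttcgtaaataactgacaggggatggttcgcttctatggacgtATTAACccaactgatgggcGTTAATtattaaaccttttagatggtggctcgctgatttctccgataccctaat
Cltrn, chrX:164091939-164092188: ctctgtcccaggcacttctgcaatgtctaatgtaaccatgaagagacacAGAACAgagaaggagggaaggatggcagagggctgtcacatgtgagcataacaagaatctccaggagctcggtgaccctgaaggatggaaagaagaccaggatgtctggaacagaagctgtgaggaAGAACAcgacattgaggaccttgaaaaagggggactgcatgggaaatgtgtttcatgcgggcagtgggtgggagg

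The Slc43a1 window held 2 TATAAA matches, starting 216 and 201 bases before the start, which is farther than a TATA box lies from its start. The upstream Cltrn window held HNF1 half-sites 73 and 54 bases before the start, and the downstream one held AGAACA at 201 and 75 bases. Of 32851 promoter windows of this length, 12.4% held TATAAA, 6.43% the HNF1 half-site, 16.1% AGAACA and 0.816% the ATF4 element, which was in none of the 3 windows. A match is a description of letters and not a site of binding.

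Slc7a13, the light chain AGT1 that carries aspartate, glutamate and cystine in the straight proximal tubule, differed far more between arrays within each group than between groups. Control arrays 1 to 3 read 4.99, 5.10 and 5.37, and control 4 read -3.29. Cinacalcet arrays 1 and 4 read 4.15 and 3.74, and cinacalcet 2 and 3 read -5.63 and -5.61 and were not well above background. The low arrays were the 3 without Y-linked signal, in both groups. As processed intensity these were 8182, 7552, 9327 and 20.8 on control arrays 1 to 4 and 4437, 4.8, 5.2 and 3126 on cinacalcet arrays 1 to 4. The 3 arrays without Y-linked signal differed from the 5 with it by -9.51 on the log2 scale.

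On all 8 arrays the Slc7a13 mean was 3.04 ± 4.22 in control and -0.84 ± 5.53 with cinacalcet, with a log2 fold change of -3.88 (SE 2.99, limma adjusted p = 0.429) that did not pass. In the Y-adjusted fit the log2 fold change was -1.61 (SE 0.23, adjusted p = 0.00703), a value that includes the 2 cinacalcet arrays at background and so is no exact fold. On the Y-positive arrays it was -1.20 (adjusted p = 0.0308), or 2.30-fold lower, and both cinacalcet arrays lay below all 3 controls there. On the 3 arrays without Y-linked signal the difference was -2.33, from 1 control array and 2 arrays at background, with no test. Among the fits run, Slc7a13 thus passed only in the Y-adjusted fit, on the Y-positive arrays and with array weights, and leaving out single arrays gave no call (adjusted p of 0.151 to 0.704).

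Slc3a1 (rBAT), the heavy chain that pairs with both Slc7a13 and Slc7a9, did not share this pattern. It read 5.54, 5.46, 5.48 and 5.38 on control arrays and 5.39, 5.45, 5.54 and 5.65 on cinacalcet arrays. All 8 arrays lay within 0.28 of one another, with a log2 fold change of 0.05 (SE 0.08, 95% interval -0.14 to 0.23). Slc7a9, the light chain of the cystine and dibasic amino acid exchanger that is mutated in human cystinuria, was at 6.16 ± 0.09 and 5.98 ± 0.10, with a log2 fold change of -0.18 (limma adjusted p = 0.193, and 0.0531 in the Y-adjusted fit).

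Slc7a12 (Asc-2), a light-chain relative whose heavy chain is unknown, ran the other way. Its levels were -1.37, -0.74, 0.27 and 4.16 on control arrays 1 to 4. They were 1.11, 3.76, 3.94 and 0.26 on cinacalcet arrays 1 to 4. The 3 arrays without Y-linked signal were the highest, 4.04 above the mean of the other 5. The log2 fold change was 1.69 (SE 1.33, limma adjusted p = 0.440), 0.72 in the Y-adjusted fit (adjusted p = 0.303) and 1.30 on the Y-positive arrays (adjusted p = 0.172).

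**Figure D3:**
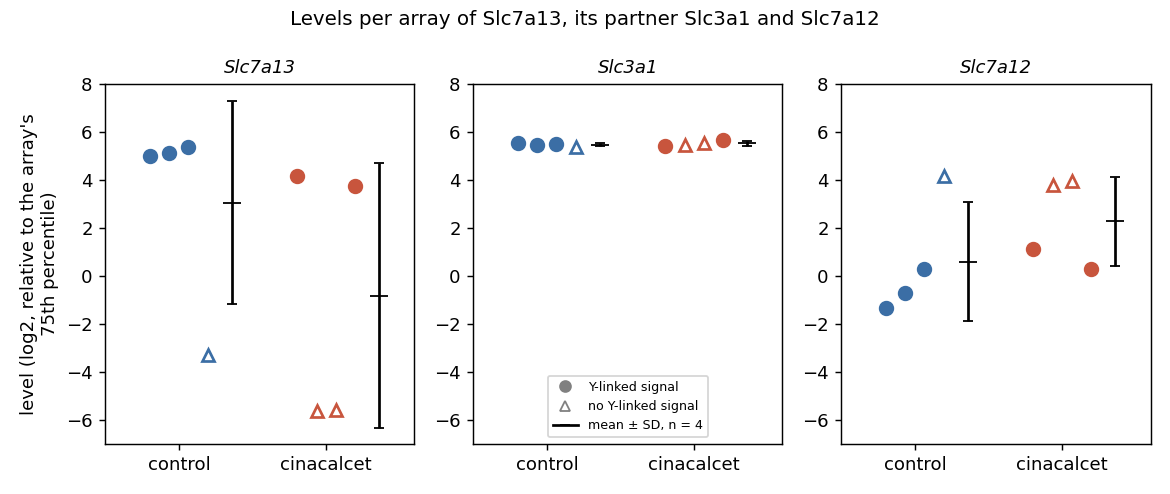
Levels of Slc7a13, Slc3a1 and Slc7a12 on each array (y axis, log2 relative to the array's 75th percentile), with circles for the 5 arrays with Y-linked signal, open triangles for the 3 without and bars for the mean ± SD of 4 arrays. Slc7a13 is at or below -3.29 and Slc7a12 at or above 3.76 on the 3 open triangles, while Slc3a1 stays between 5.38 and 5.65.

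Many, but not all, of the listed genes known to be higher in male or in female mouse kidney also differed along this split. The 9 listed male-high genes, all measured, had a summed level of 11.18 to 11.44 on controls 1 to 3 and 10.31 on control 4. On cinacalcet 1 and 4 it was 10.84 and 11.06, and on cinacalcet 2 and 3 it was 8.60 and 8.82. Most of this sum came from Kap, which read 10.42 to 10.74 on controls 1 to 3 and 10.17 on control 4. Kap read 8.09 and 8.45 on cinacalcet 2 and 3. On control 4 Cyp4b1 read 5.09, beside 8.03 to 8.15 on controls 1 to 3, and Gusb read 1.61, beside 2.41 to 2.65. None of the 9 passed on 8 arrays. On the Y-positive arrays all of them but Kap and Cyp2e1 passed as lower, where 5.45% of all genes were lower. There Slco1a1 was at -1.90 (limma adjusted p = 0.0174), Cyp4b1 at -1.24 (adjusted p = 0.0120) and Odc1 at -1.62 (adjusted p = 0.0271). In the Y-adjusted fit 6 of the 9 were lower with cinacalcet and none was higher, where 10.4% of all genes were lower, and the 6 include Slco1a1, an organic anion transporter gene (-1.64, adjusted p = 0.00377), Cyp4b1, a cytochrome P450 gene (-0.96, adjusted p = 0.00936), and Odc1, the first enzyme of polyamine synthesis (-1.21, adjusted p = 0.0185). The 4 female-high genes summed to 5.75 to 5.97 on controls 1 to 3 and 7.97 on control 4, to 7.23 and 7.84 on cinacalcet 1 and 4, and to 8.403 and 8.534 on cinacalcet 2 and 3. Cinacalcet 1 and 4 thus lay above the Y-positive controls. Cyp4a14 and Hao2 made up most of this sum, and each overlapped across the split. Cyp4a14 read 7.44 on cinacalcet 4 and 7.25 on control 4. Hao2 read 6.14 on cinacalcet 1, and 5.83 and 6.06 on cinacalcet 2 and 3. The male-high genes Odc1 and Gusb overlapped as well. None of the 4 female-high genes passed on 8 arrays, and in the Y-adjusted fit Cyp4a14, a fatty acid hydroxylase gene, was higher (3.34, adjusted p = 0.0477). Prlr alone of the 4 passed on the Y-positive arrays, as higher (2.08, adjusted p = 0.0264), and Cyp4a14 did not (4.71, adjusted p = 0.0501). Of the proximal tubule markers, Atp11a (-1.06, adjusted p = 0.0125), the glucose transporter gene Slc5a1 (-0.64, adjusted p = 0.00413) and the organic anion transporter gene Slc22a6 (-0.43, adjusted p = 0.0307) were lower in the Y-adjusted fit, and the angiotensinogen gene Agt was higher (0.60, adjusted p = 0.00744). Agt alone of the 12 also passed on 8 arrays (0.54, adjusted p = 0.0357), and it passed on the Y-positive arrays (0.67, adjusted p = 0.0397). Atp11a (-1.28, adjusted p = 0.0354), Slc5a1 (-0.61, adjusted p = 0.0300) and Slc22a6 (-0.57, adjusted p = 0.0442) passed there as lower. Their part in the Slc7a13 result was not tested.

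Many transporters followed the split by Y-linked signal more than the treatment. In 20 of 45 genes, or 44.4%, the 3 arrays without Y-linked signal all lay outside the range of the 5 with it, beside 24.4% of all genes tested. Of the 20, 13 were higher and 7 lower on the 3 arrays. Among these 20, after Slc7a13 and Slc7a12 the differences were largest, chosen here after their values were seen, in the glial glutamate transporter gene Slc1a3 (0.93 higher on the 3 arrays), the serotonin transporter gene Slc6a4 (0.92 higher) and the glycine transporter gene Slc6a9 (-0.81). The median size of the difference was 0.31 over the 45 genes and 0.19 over all genes. This is a description of arrays set apart by the data and was not tested.

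**Figure D4:**
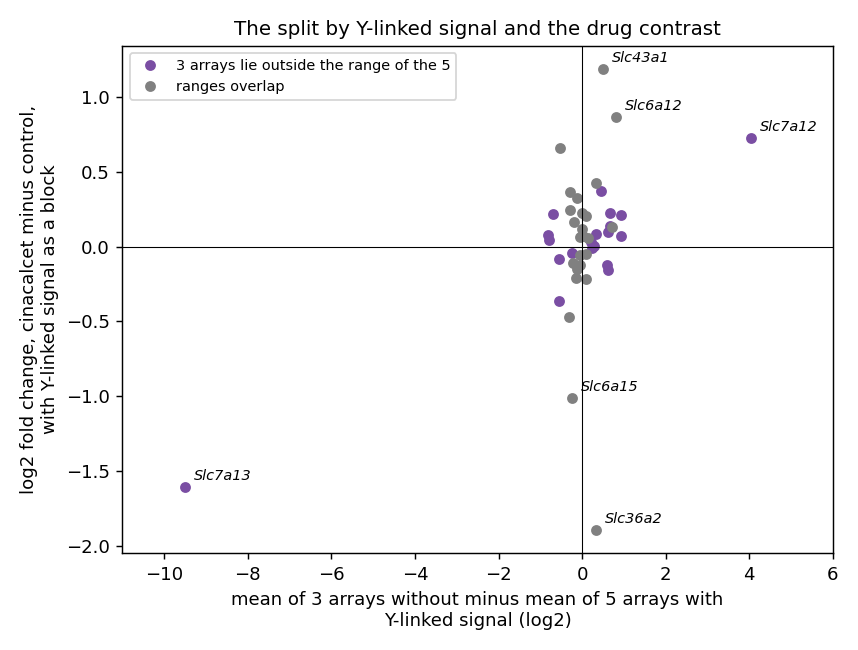
For each of the 45 genes, the mean of the 3 arrays without Y-linked signal minus the mean of the 5 with it (x axis, log2) and the log2 fold change of cinacalcet in the Y-adjusted fit (y axis). Slc7a13 at -9.51 and Slc7a12 at 4.04 stand far out on the x axis, while Slc43a1 and Slc6a15 differ mainly on the y axis.

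Of 10 measured apical genes of the proximal tubule, Cltrn alone passed on 8 arrays. Slc6a19 (B0AT1), the main neutral amino acid transporter of the brush border, was at 5.02 ± 0.11 in control and 5.23 ± 0.14 with cinacalcet (limma adjusted p = 0.176). Its relative Slc6a18 (B0AT3), a transporter of glycine and alanine, was at 5.05 ± 0.22 and 5.22 ± 0.22, a log2 fold change of 0.16 (95% interval -0.17 to 0.50). Both depend on collectrin, which was the gene of this group that fell. Slc1a1, the glutamate and aspartate transporter EAAC1, was at 4.31 ± 0.11 and 4.14 ± 0.05 (adjusted p = 0.197, and 0.0388 without control 4).

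Slc6a20a and Slc6a20b are a pair of mouse genes close in sequence, so that their probes may share signal. Slc6a20b read 3.72, 3.65, 3.66 and 3.09 on control arrays and 3.24, 2.92, 2.85 and 3.21 on cinacalcet arrays. Control 4 lay within the cinacalcet range, and the 3 other controls above it. The log2 fold change was -0.48 (SE 0.16, limma adjusted p = 0.107), and it passed as lower in the Y-adjusted fit (-0.36, adjusted p = 0.0156), on the Y-positive arrays (-0.45, adjusted p = 0.0332) and without control 4 (-0.62, adjusted p = 0.0145). Slc6a20a had a log2 fold change of 0.11 (95% interval -0.22 to 0.45).

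Slc36a2 (PAT2), a proton-coupled carrier of glycine and proline in the kidney that is also known from brown and beige fat cells, varied with fat markers. It read -1.33, -1.66, -2.65 and -0.03 on control arrays and -3.73, -1.17, -4.96 and -2.55 on cinacalcet arrays, with a log2 fold change of -1.68 (SE 0.84, limma adjusted p = 0.231). Of 6 fat markers 5 were measured, and their summed level was 5.76, 5.29, 5.16 and 6.83 on control arrays and 4.40, 5.58, 4.13 and 4.87 on cinacalcet arrays. Most of this sum came from Fabp4, which read 5.31 on control 1 and 4.07 on cinacalcet 3. Fabp4, Adipoq and Plin1 were each highest on control 4 and lowest on cinacalcet 3. Control 4 was highest and cinacalcet 3 lowest in both measures. Slc7a10 (Asc-1), known from white fat cells and above background on 2 arrays, was brightest on the same control 4 (-3.99) and next on cinacalcet 2 (-4.37), and is named after its values were seen. Of the fat markers Ucp1, of brown fat, passed as lower (0.90 ± 1.90 in control and -4.83 ± 0.81 with cinacalcet, limma adjusted p = 0.0140, above background on 4 control and 2 cinacalcet arrays), and no other did. The Ucp1 call held in the Y-adjusted fit (adjusted p = 0.00562) and on the Y-positive arrays (adjusted p = 0.0251). Their part in Slc36a2 was not tested.

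**Figure D5:**
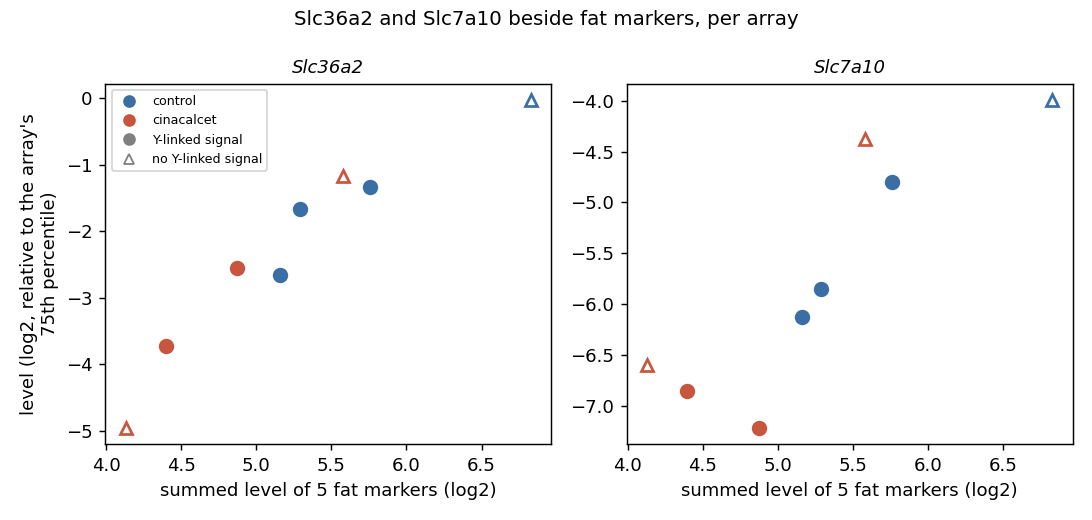
Levels of Slc36a2 and Slc7a10 on each array (y axis, log2 relative to the array's 75th percentile) against the summed level of 5 fat markers (x axis, log2, most of it from Fabp4). Circles are arrays with Y-linked signal and open triangles are arrays without. Slc36a2 runs from -4.96 at a fat level of 4.13 to -0.03 at 6.83, and control 4 is at the upper right in both panels.

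No basolateral transporter passed the test. The heavy chain gene Slc3a2 (4F2hc) read 6.46 ± 0.14 in control and 6.55 ± 0.04 with cinacalcet, a log2 fold change of 0.09 (95% interval -0.11 to 0.28). Its light chain Slc7a7 (y+LAT1), which releases dibasic amino acids and is mutated in human lysinuric protein intolerance, was at 7.44 ± 0.12 and 7.42 ± 0.08 (95% interval of the difference -0.21 to 0.17). Slc7a8 (LAT2), the neutral amino acid light chain, was at 2.55 ± 0.47 and 2.56 ± 0.28, with control 4 at 3.25 and controls 1 to 3 between 2.25 and 2.35. Slc43a2 (LAT4), a relative of Slc43a1, was at 3.02 ± 0.15 and 3.07 ± 0.21, and its log2 fold change of 0.05 had a 95% interval of -0.23 to 0.34. Slc7a6 (y+LAT2) was above background on 6 arrays, with a log2 fold change of 0.30 (SE 0.39).

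Transporters that supply cells for growth gave no further call on 8 arrays. The glutamine transporter gene Slc1a5 (ASCT2) was at 1.42 ± 0.42 and 1.72 ± 0.37 (limma adjusted p = 0.457). The sodium-coupled neutral transporter gene Slc38a2 (SNAT2), which amino acid starvation is known to induce, was at 1.70 ± 0.15 and 1.81 ± 0.25, with a 95% interval of the difference of -0.21 to 0.42. Slc7a5 (LAT1), the large neutral amino acid light chain, gave a log2 fold change of 0.08 with the probe used here and 0.47 with another, and neither passed. Slc7a1 (CAT1), the cationic amino acid transporter, was the 1 measured gene of its group, with a log2 fold change of 0.37 (adjusted p = 0.334).

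Of 5 genes for osmolytes, creatine and glycine none passed on 8 arrays, and 4 had an estimate above 0. Slc6a12 (BGT1), which loads the renal medulla with betaine, read 0.38, -0.13, -0.10 and 0.78 on control arrays and 0.92, 2.04, 0.91 and 1.09 on cinacalcet arrays. The groups did not overlap, and control 4 came closest to the cinacalcet arrays. Its log2 fold change was 1.01 (SE 0.30, limma adjusted p = 0.0790), and it did not pass in the Y-adjusted fit either (0.86, adjusted p = 0.0556). It passed on the Y-positive arrays (0.95, adjusted p = 0.0460) and without control 4 (1.19, adjusted p = 0.0321).

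Slc6a6, the taurine transporter gene, read 5.34, 5.16, 5.28 and 4.88 on control arrays and 5.57, 5.20, 5.28 and 5.69 on cinacalcet arrays. The groups overlapped, and in each the arrays without Y-linked signal were at the low end. Its log2 fold change was 0.27 (limma adjusted p = 0.258), and it passed as higher in the Y-adjusted fit (0.36, adjusted p = 0.0141) and not on the Y-positive arrays (0.37, adjusted p = 0.0682). Slc6a8, the creatine transporter gene, was at 5.76 ± 0.08 and 5.97 ± 0.08, with no overlap and a log2 fold change of 0.21 (SE 0.07, adjusted p = 0.116). It passed under quantile normalization (0.26, adjusted p = 0.0415).

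Among the 4 lysosomal, 6 glutamate and neurotransmitter and 5 less characterised genes no call was made on 8 arrays, and log2 fold changes lay between -0.23 and 0.48. On the Y-positive arrays the proton-coupled carrier gene Slc36a4 (0.52, limma adjusted p = 0.0306) and the retinal glutamate transporter gene Slc1a7 (0.49, adjusted p = 0.0489) passed as higher, and both are named after their values were seen. Neither passed in the Y-adjusted fit (adjusted p of 0.0538 and 0.442). Slc1a7 was above background on 6 of 8 arrays. Slc7a6os, the neighbour left out of the counts, had a log2 fold change of -0.13.

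Outside these families, 13 of 17 listed genes of amino acid and peptide transport were measured. Of all genes tested 4.64% were lower and 3.37% higher, and of these 13 genes 2 fell and none rose. These were Slc66a1 (PQLC2), the lysosomal exporter of cationic amino acids (log2 fold change -0.37, limma adjusted p = 0.0403), and Slc25a13 (citrin), the mitochondrial aspartate-glutamate carrier (-0.39, adjusted p = 0.0471). The Slc66a1 call held in the Y-adjusted fit (-0.35, adjusted p = 0.0295) and on the Y-positive arrays (-0.47, adjusted p = 0.0353). The Slc25a13 call held in the Y-adjusted fit (-0.34, adjusted p = 0.0162) and was lost on the Y-positive arrays (-0.32, adjusted p = 0.0818). The basolateral aromatic amino acid transporter gene Slc16a10 was at 0.87 in control and 0.67 with cinacalcet (adjusted p = 0.336). With arrays left out singly, the Slc66a1 call held only without control 4, and the Slc25a13 call only without control 4 or cinacalcet 4 (adjusted p reaching 0.118 and 0.128 otherwise).

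Of 18 listed genes that the transcription factor ATF4 induces when amino acids run short, 2 rose and none fell. Of all genes tested, 3.37% were higher and 4.64% lower. Cebpb, a leucine zipper factor gene of wide inducibility, rose 2.15-fold (log2 fold change 1.102, limma adjusted p = 0.0113), and Psat1, an enzyme of serine synthesis, rose 1.57-fold (0.65, adjusted p = 0.0203). Defining members did not pass, with log2 fold changes of -0.20 for the asparagine synthetase gene Asns, -0.31 for Trib3 and -0.26 for Chac1 (adjusted p of 0.443 to 0.680). In the Y-adjusted fit 3 of the 18 were higher and 2 lower, beside 6.64% and 10.4% of all genes. The higher ones were Cebpb (1.18, adjusted p = 0.00377), Psat1 (0.65, adjusted p = 0.0145) and Ddit4, an inhibitor of mTORC1 signalling (1.22, adjusted p = 0.0192). The lower ones were Trib3 (-0.48, adjusted p = 0.0312) and Ddit3 (-0.52, adjusted p = 0.0176). On the Y-positive arrays Cebpb passed (adjusted p = 0.0317), and Psat1 did not (0.63, adjusted p = 0.0836). Chac1 passed there as lower (-0.91, adjusted p = 0.0398), and Ddit4, Trib3 and Ddit3 did not pass (adjusted p of 0.0909, 0.0851 and 0.0836). The Cebpb call held without each array in turn, and the Psat1 call without control 4, cinacalcet 1 or cinacalcet 4 but not without any of the others, where its adjusted p reached 0.0668.

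Of 17 genes by which lysosomes report amino acids to the kinase mTORC1, 1 rose and 1 fell, beside 3.37% and 4.64% of all genes tested. Sesn1, a sestrin gene, rose 1.53-fold (log2 fold change 0.61, limma adjusted p = 0.0334), and Lamtor2, a subunit of the Ragulator scaffold, fell 1.25-fold (-0.33, adjusted p = 0.0334). In the Y-adjusted fit 2 of the 17 were higher and 2 lower, beside 6.64% and 10.4% of all genes. The higher ones were Sesn1 (0.55, adjusted p = 0.0179) and Castor2 (0.38, adjusted p = 0.0113). The lower ones were Lamtor2 (-0.31, adjusted p = 0.0224) and the kinase gene Mtor (-0.28, adjusted p = 0.0361). On the Y-positive arrays Lamtor2 passed (-0.38, adjusted p = 0.0413), and Sesn1 did not (0.57, adjusted p = 0.0824). Castor2 and Mtor did not pass there either (adjusted p of 0.0542 and 0.142). Both calls were lost without most single arrays (adjusted p up to 0.0999 and 0.105). Markers of other cells in the tissue moved beside these values: all 5 measured macrophage markers of 6 were lower, with summed levels of 4.99 to 5.10 on control and 4.34 to 4.68 on cinacalcet arrays. All 5 also passed in the Y-adjusted fit and 3 of them on the Y-positive arrays, and their part in the transporter results was not tested. Of 5 adrenal markers 2 were measured, at a summed level of -2.21 to -1.72 and -2.13 to -1.56, and neither passed.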

How the data were processed

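The deposited files give each spot's intensity on a linear scale from one-colour Agilent arrays. Feature Extraction 11.0.1.1 made them per the file headers, while the submitters' processing notes name version 9.5. An array had 62976 spots, of which 59305 were no controls and belonged to 55681 probes. Outlier spots (118 to 147 per array) were set to missing, repeated spots averaged, and 31 probes lacking a value dropped. No spot was saturated. Each array's 75th percentile was subtracted on the log2 scale.

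Accessions named 27235 probes through RefSeq (GRCm38.p6). A probe had to be well above background on 4 or more arrays, and the brightest represented its gene (14209 genes). limma 3.58.1 (R 4.3.3; lmFit and eBayes) compared the groups, 2-sided, with Benjamini-Hochberg adjustment over all genes, and was tested on simulated data. An array lacks Y-linked signal where none of Ddx3y, Eif2s3y, Uty and Kdm5d is well above background. For the normexp alternative the median spot signal was used.

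Members, lists, the rule for named genes and the alternatives, the Y-adjusted fit included, were chosen with earlier results of these data known. Named genes are Slc7a13 and Slc7a12, members passing on 8 arrays or in the Y-adjusted fit, a list of tubule transporters, and up to 4 passing genes of each other list. With 4 arrays per group, array number limits precision. One gene of the other transport list is not reported here.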

Additional observations from a re-analysis of the deposited data

Results flagged for a closer look

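In 8 of 46 sets of 4 arrays (23 named genes in 2 groups) 1 array stood far from the other 3. The cutoff flags about 1 in 20 sets of independent values. These sets share the same 8 arrays, and their genes were chosen with earlier results known, so that rate is no measure for the 8. Control 4, which lacked Y-linked signal, was the far array in 4 of the 8 flagged sets. It read -3.29 for Slc7a13, where the other controls were at 4.99 to 5.37, and 3.25 for Slc7a8, where they were at 2.25 to 2.35. It read 3.09 for Slc6a20b, beside 3.65 to 3.72, and 6.67 for Slc3a2, beside 6.37 to 6.42. Cinacalcet 1 read 8.18 for Cltrn, beside 7.82 to 7.84 on the other cinacalcet arrays, and 2.76 for Slc43a2, beside 3.15 to 3.22. Cinacalcet 2 read 2.04 for Slc6a12, beside 0.91 to 1.09. Control 1 read 1.92 for Slc38a2, beside 1.59 to 1.65.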

How the results depend on the processing

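The count of 3 called transporter genes stayed between 2 and 4 under either normalization, either background correction, each filter, the probe mean, trended and robust variance and slide row as a block. It was 6 in the Y-adjusted fit, 7 on the 5 Y-positive arrays, 14 with array weights, and 2 to 8 with single arrays left out, the 8 without control 4. The shares of all genes passing with array weights and with single arrays left out are not given here. Those counts are therefore not read as particular to transporters. With replicate number as a block it was 0, where 0 of all genes passed in limma and 2869 had an unadjusted p under 0.05, and Slc43a1, Slc6a15 and Cltrn had adjusted p of 0.0786, 0.0705 and 0.126. Same-numbered arrays correlated at -0.56 to 0.34 in their deviations from group means, and 1 of 4 controls correlated best with its own number, so replicate numbers were not taken as pairs. With slide column as a block it was also 0, where 34 of all genes passed and 3460 had an unadjusted p under 0.05. The Slc7a13 log2 fold change passed at -1.61 in the Y-adjusted fit, -1.20 on the Y-positive arrays and -7.42 with array weights.

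No estimate that changed sign passed in the fit where it did so. Slc7a7 was at 0.024 with quantile normalization, 0.012 with normexp and quantile normalization, 0.031 with array weights and 0.096 with slide column as a block. The column block also gave -0.16 for Slc38a2, -0.014 for Slc3a1 and -0.068 for Slc6a6. Normexp with the 75th percentile gave -0.0018 for Slc7a5 and -4.0e-06 for Slc7a8. The Y-adjusted fit put Slc7a8 at -0.16, and Slc43a2 at -0.0071, and the Y-positive arrays put Slc43a2 at -0.00092. With single arrays left out, estimates ranged from -0.0024 to 0.085 for Slc3a1, -0.018 to 0.20 for Slc6a20a, -0.072 to 0.021 for Slc7a7 and -0.085 to 0.25 for Slc7a8. Low intensity limits the genes on few arrays above background, and the cause of these changes was not tested.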
